A study of Mus musculus with 10 samples.

Results

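The genes of oxidative phosphorylation were followed in the whole brain of mouse pups that carried 1 defective copy of *Arid1b*. The rule took every protein-coding gene of the table whose symbol names a subunit of complexes I to IV, of ATP synthase, cytochrome c or a complex I assembly factor of the Nduf family, and it used no measured value. It found 105 of the 18444 genes in the table, 92 encoded in the nucleus and 13 in the mitochondrial genome. Another 3 annotated symbols (*Cox7b2*, *Cox8b* and *Cox8c*) matched the rule and were not analysed here. All 105 genes had a mean of at least 10 normalised counts and were tested.

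The 10 mice were C57BL/6N males killed at postnatal day 3. In the 5 heterozygous mice (*Arid1b*+/-, HT) 1 allele carried a protein-truncating mutation at exon 5 (line C57BL/6N-Arid1b em1Tcp), a deletion with insertion of TT. The mutation is constitutive and not limited to a cell type. The other 5 mice were wild type (WT). Each library was made from poly-A mRNA of the brain of 1 mouse, and the values are normalised read counts, in which differences in depth between libraries have been divided out. The question was whether loss of 1 copy of this chromatin remodeler subunit went with a change of the respiratory chain transcripts.

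*Arid1b* itself (ENSMUSG00000069729, chromosome 17, 4994332 to 5347656, GRCm38) gave 2372, 2230, 2253, 1505 and 2142 normalised counts in HT 1 to 5 and 3386, 3155, 3597, 3429 and 3108 in WT 1 to 5. On average HT libraries held 63.0% of the WT level, and every HT library was below every WT library (two-sided exact permutation test over all assignments of the 10 libraries, p = 0.00794, the smallest possible). Library HT 4 stood apart in the whole table. Its genes lay a median of 0.21 (log2) from their mean over libraries, where the other 9 libraries gave 0.077 to 0.11. In HT 4 the median deviation was 0.26 for the 10% of genes with the shortest transcripts and -0.31 for the 10% with the longest. Results are therefore given with and without HT 4. The total of normalised counts ran from 27243506 in HT 4 to 29032442 in HT 3.

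Oxidative phosphorylation makes most of the ATP of a neuron. Complex I (NADH dehydrogenase) and complex II (succinate dehydrogenase) feed electrons into the chain, complex III hands them to the small carrier cytochrome c, and complex IV (cytochrome c oxidase) passes them to oxygen. Complexes I, III and IV pump protons across the inner mitochondrial membrane, and ATP synthase lets the protons flow back to make ATP. Complex II is built from nuclear genes alone, whereas each of the other complexes joins nuclear subunits, imported from the cytosol, to subunits that the mitochondrion translates itself from its own small genome.

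Part of the mitochondrial genome also lies as a copy on nuclear chromosome 1, and several deposited values depend on how reads were divided between gene and copy. The copy of *mt-Nd4l*, which encodes the smallest complex I subunit of the mitochondrial genome, is annotated as *Gm10222* (chr1:24612407-24612700, minus strand, GRCm38) and its 294 bases are all identical to the first 294 bases of *mt-Nd4l* (chrM:9877-10173). The gene is shown because it had the largest difference between groups without HT 4. Capitals mark the only bases that the copy lacks.
mt-Nd4l: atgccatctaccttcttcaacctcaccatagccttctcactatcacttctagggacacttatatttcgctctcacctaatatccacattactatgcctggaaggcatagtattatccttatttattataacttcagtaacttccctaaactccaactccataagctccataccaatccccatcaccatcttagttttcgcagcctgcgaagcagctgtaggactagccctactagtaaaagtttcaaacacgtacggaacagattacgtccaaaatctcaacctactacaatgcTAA
A second pair, *mt-Nd3* (complex I) and *Gm28438* (chr1:24612775-24613119), differs at 1 of 345 aligned bases, T3C, counted from the first base of *mt-Nd3*. The first 60 bases of each are shown, with that base in capitals, because a read that does not cover it cannot be told apart between both places.
mt-Nd3: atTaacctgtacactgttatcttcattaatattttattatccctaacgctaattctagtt
Gm28438: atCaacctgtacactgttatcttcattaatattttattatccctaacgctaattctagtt
The copies of *mt-Atp6* (*Gm10925*, 678 bases), *mt-Co2* (*Gm28661*, 681 bases) and *mt-Co3* (*Gm28437*, 783 bases) held no difference from their genes, and that of *mt-Co1* (*Gm29216*, 492 bases) held 6.

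Nuclear genes of the chain are classical targets of the transcription factors NRF1, GABPA (an ETS factor, also called NRF-2) and YY1. A promoter sequence (RefSeq, GRCm38.p6, 250 bases before the start to 50 after it) was matched for 73 of the 92 nuclear genes. On either strand, the NRF1 word GCGCATGCG was in 11 of them (15.1%), against 1.95% of all 27025 promoters and 3.60% of the 12290 promoters of tested genes. The GABPA word CCGGAAG was in 18 (24.7%), against 9.93% and 17.5%, and the YY1 word AAGATGG in 11 (15.1%), against 7.28% and 7.74%. Of the 73 promoters, 34 held any of the 3 words and 6 held more than 1. The GABPA word ends in the letters AAG with which the YY1 word begins, so both can overlap, and a match is a description of letters only. The promoters of cytochrome c (*Cycs*), of the assembly factor *Ndufaf5* and of the complex IV subunit gene *Cox6a1* are shown because the first 2 led their groups in the comparison below and *Cox6a1* held both the NRF1 and the GABPA word. Capitals mark the NRF1 word, which in *Cycs* stands in the opposite orientation.
Cycs (chr6:50566520-50566819, minus strand): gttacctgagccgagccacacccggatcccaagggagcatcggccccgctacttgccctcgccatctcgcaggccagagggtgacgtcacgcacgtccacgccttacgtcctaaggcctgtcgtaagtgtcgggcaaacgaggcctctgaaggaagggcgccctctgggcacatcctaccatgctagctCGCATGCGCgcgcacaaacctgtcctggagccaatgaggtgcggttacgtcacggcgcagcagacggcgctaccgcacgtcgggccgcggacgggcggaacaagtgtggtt
Ndufaf5 (chr2:140170396-140170695, plus strand): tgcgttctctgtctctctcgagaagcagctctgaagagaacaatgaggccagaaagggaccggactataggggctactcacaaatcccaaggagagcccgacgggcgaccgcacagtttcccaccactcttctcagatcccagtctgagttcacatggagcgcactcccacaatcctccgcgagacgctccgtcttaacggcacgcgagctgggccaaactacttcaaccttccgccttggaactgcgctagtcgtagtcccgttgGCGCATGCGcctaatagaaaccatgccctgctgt
Cox6a1 (chr5:115348909-115349208, minus strand): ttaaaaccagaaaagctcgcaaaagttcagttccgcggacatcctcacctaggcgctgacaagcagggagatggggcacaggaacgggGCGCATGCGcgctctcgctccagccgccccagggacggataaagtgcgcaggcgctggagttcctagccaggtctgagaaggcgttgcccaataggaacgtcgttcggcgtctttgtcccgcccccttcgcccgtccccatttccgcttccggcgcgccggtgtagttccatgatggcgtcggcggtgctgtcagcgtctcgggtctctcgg
The NRF1 word began 61 bases before the annotated start in *Cycs*, 162 before it in *Cox6a1* and 16 after it in *Ndufaf5*.

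Levels were first compared between genes, per kilobase of the principal transcript and as a mean over the 10 libraries. The 92 nuclear genes had a median of 1820 normalised counts per kilobase, above 93.7% of all tested genes, and the 13 mitochondrial genes had a median of 57345. Among nuclear genes the order by median was ATP synthase (4034, 17 genes), complex IV (3363, 17 genes), complex III (2432, 9 genes), complex II (1704, 4 genes), complex I (1496, 36 genes) and the complex I assembly factors (297, 8 genes). The assembly factors, which help to build complex I and are not part of it, were thus far below the subunits. Within complex I, the 7 nuclear genes of the catalytic core, which every species with complex I shares, had a median of 1410, close to the 1521 of the 29 supernumerary subunits. The ranges of neighbouring complexes overlapped, and no order between single complexes was tested. With the summed length of all exons in place of the principal transcript, ATP synthase (1344) fell below complexes IV (1930) and III (1629).

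**Figure D1:**
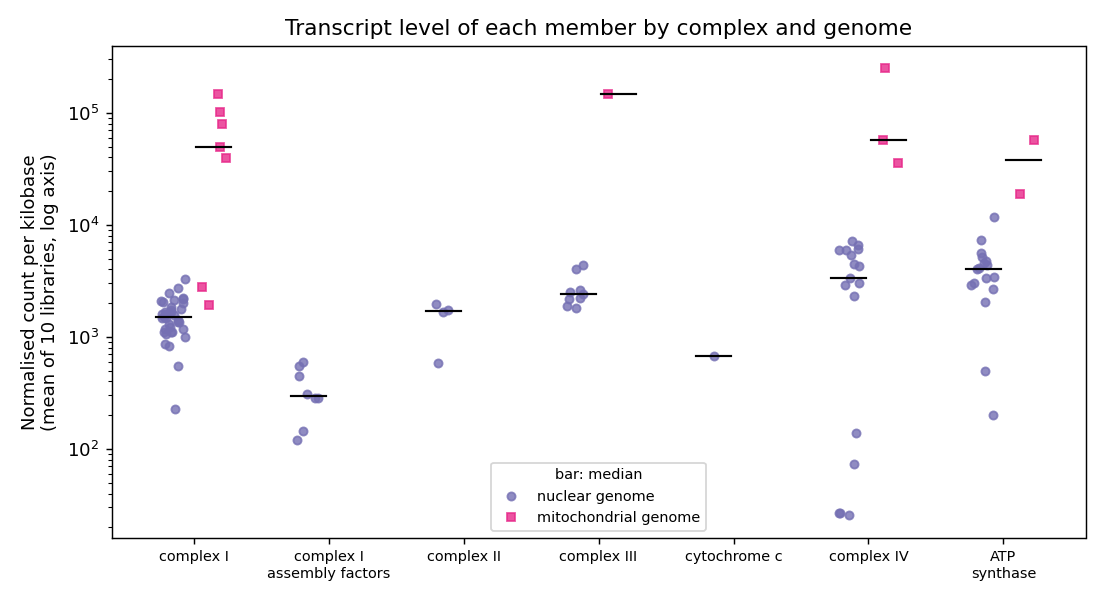
Normalised count per kilobase of the principal transcript (mean of 10 libraries, log axis) of each of the 105 genes, by complex, with nuclear genes as circles, mitochondrial genes as squares and bars at the medians. Mitochondrial genes of complexes III and IV and of ATP synthase lie above every nuclear gene, whereas *mt-Nd3* (2774) and *mt-Nd6* (1913) lie among the nuclear genes of complex I. With the counts of its chromosome 1 copy added *mt-Nd3* stands at 38136.

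The highest nuclear gene of each complex was *Atp5b* (11731 per kilobase), which encodes the catalytic beta subunit of ATP synthase, *Cox4i1* (7216) in complex IV, *Uqcrh* (4370), the hinge protein of complex III, *Ndufb8* (3261) in complex I and *Sdhb* (1955), the iron-sulphur subunit of complex II. With the summed exon length *Atp5a1*, *Cox8a*, *Ndufc2* and *Sdhd* led in their place, and *Uqcrh* still led complex III. The lowest were *Cox4i2* (25.5) in complex IV, *Atp5s* (201), *Ndufb4* (229) in complex I, *Sdhc* (589) and *Uqcrfs1* (1808), the Rieske iron-sulphur protein. *Ndufb4* is a special case, because *Ndufb4c* (670 normalised counts against 223) shares 38.3% of its 31-base words, and reads could be divided between both. *Uqcrfs1*, the lowest of complex III, was still above the complex I median. Cytochrome c (*Cycs*, 670 per kilobase) was lower than cytochrome c1 (*Cyc1*, 1898), its docking partner in complex III, and *Cycs* shares 28.6% of its words with *Gm10053*, annotated as protein-coding on chromosome 19 (1576 normalised counts against 2092).

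Several complex IV subunits exist in isoforms that differ between tissues, and the pups' brains held almost only the widely expressed form. *Cox4i1* made up 99.6% of the summed per-kilobase level of the *Cox4i* pair on average over libraries, and *Cox4i2*, the oxygen-responsive form known from the lung, the remaining 0.35%. *Cox6a1*, the liver form, held 99.6% and *Cox6a2*, the heart and muscle form, 0.41%. *Cox7a1*, also a heart and muscle form, was at 0.44% of its family, whereas *Cox7a2* (50.7%) and *Cox7a2l* (48.8%), a factor of supercomplex assembly, were about level. *Cox6b1* held 97.7% against 2.29% for the testis form *Cox6b2*. *Ndufa4*, a complex IV subunit despite its name, held 98.7% against 1.35% for *Ndufa4l2*, its hypoxia-induced relative. In ATP synthase the 3 genes for the identical mature c subunit were unequal, with *Atp5g3* at 49.9%, *Atp5g1* at 45.8% and *Atp5g2* at 4.37%. The last share is uncertain, since every word of *Atp5g2* also occurs in the copy *Gm10175*, which was assigned 1869 normalised counts against 217. Shares overlapped between groups. *Cox6a2* ran from 0.16% to 0.58% in HT and from 0.36% to 0.60% in WT, *Cox4i2* from 0.27% to 0.40% and from 0.29% to 0.44%, and *Atp5g2* from 3.95% to 5.00% and from 3.23% to 4.81%. *Cox6a2*, *Cox7a1* and *Cox4i2* had means of only 10.4 to 18.5 normalised counts, which limits their precision.

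In HT against WT with all 10 libraries, no gene of the chain passed an adjusted p of 0.05 (limma-trend on log2(value + 1), Benjamini-Hochberg over 17020 genes), and neither did any other gene of the table, a background of 0%. The mutated gene *Arid1b* itself did not pass (log2 fold change -0.68, adjusted p = 0.390 by limma). Without HT 4 it did (-0.57, adjusted p = 0.000252 by limma). A lack of calls with all 10 libraries is therefore weak evidence that the members did not change. At an unadjusted p under 0.05 there was 1 member, *Ndufaf5*, of 105, against 3.41% of all genes tested. Most fold changes were small and above zero. Of the 105 genes 87 were higher in HT by the fitted value, against 46.4% of all genes, with a median log2 fold change of 0.044 (nuclear 0.039, mitochondrial 0.078) against -0.0074 over all genes tested. HT and WT libraries overlapped for each of the 105 genes, whereas they did not overlap for 0.629% of all genes. In whole brain, a difference in the number of cells with high levels and a difference in RNA per cell cannot be told apart.

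The nuclear part of this pattern rested on 1 library. HT 4 held the highest of the 10 values in 86 of the 92 nuclear genes and the lowest in 0. As a median over the nuclear genes, HT 4 was 0.35 above the mean of libraries on the log2 scale, whereas the other HT libraries lay between -0.14 and -0.0056 and the WT libraries between -0.096 and 0.051. Nuclear genes made up 0.932% of all normalised counts in HT 4 and 0.664% to 0.746% in the other 9 libraries. Without HT 4 only 35 of the 105 genes were higher in HT, against 49.6% of all genes, with a median of -0.028. Of the 92 nuclear genes, 50 changed from higher to lower when HT 4 was left out, 26 stayed higher and 16 stayed lower, and their median became -0.038. This turn to lower values did not hold once a trend with transcript length and GC content was also removed from each library, where 55 of 92 were higher with a median of 0.0081, beside 54.3% and 0.010 over all genes tested. Short transcripts were those most raised in HT 4. Its median was 0.38 for the 37 nuclear genes with transcripts under 700 bases and 0.20 for the 23 with 1400 bases or more, and removal of that trend left 0.19 over all nuclear genes. In the same library the mean deviation of neuron markers was the lowest of the 10 (-0.21 over 8 genes), but the genes were split, with *Rbfox3*, *Map2*, *Syt1* and *Dcx* at their lowest and *Tubb3*, *Stmn2* and *Gap43* at their highest. Forebrain markers were also lowest by their mean (-0.36 over 9 genes, 7 of them at their lowest). Markers of cerebellum (0.62 over 9, 7 of them at their highest) and the oligodendrocyte lineage (0.29 over 8, 5 at their highest) were highest by their mean. Astrocyte and radial glia markers (0.095 over 8) were level with WT 4 (0.095). They were split too, with 4 at their highest and *Slc1a2* at its lowest. HT 4 was not the only library to stand out. The cerebellum mean was -1.3 in HT 5, the lowest of the 10, against -0.29 to 0.46 in WT. HT 5 stays in the comparison without HT 4. These marker means are of the deposited values, with the length trend left in. The part of these markers in the result was not tested.

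**Figure D2:**
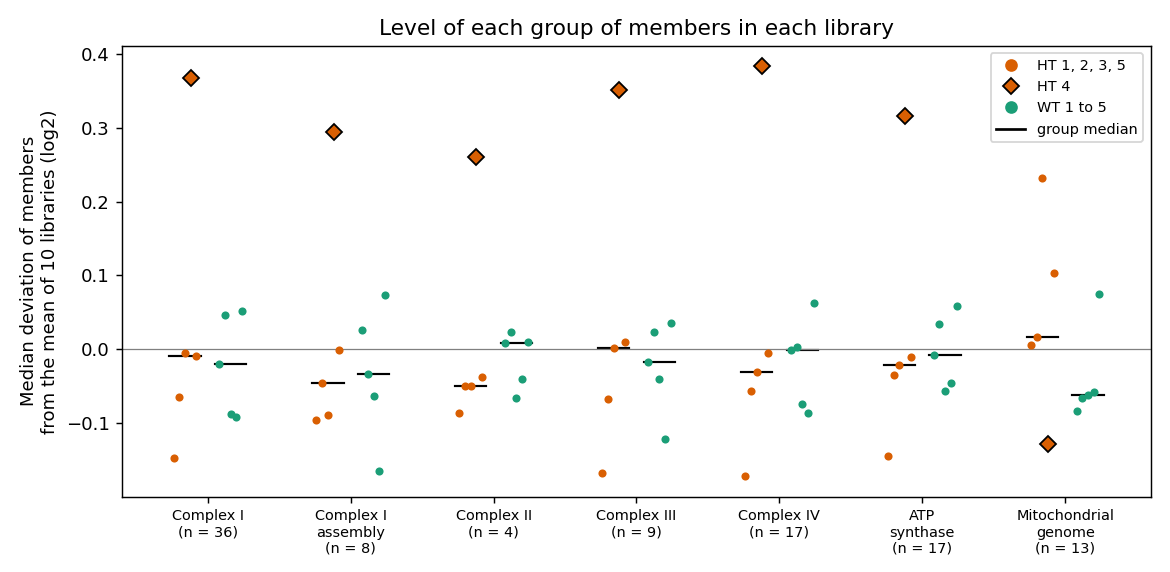
Median deviation of the genes of each group from their mean over 10 libraries (log2), by library, with HT in orange (HT 4 as a diamond), WT in green and bars at the group medians. HT 4 is at 0.26 to 0.38 in each of the 6 nuclear groups drawn (cytochrome c, at 0.12, is not drawn) and at -0.13 for the mitochondrial genes, while the other HT libraries overlap the WT libraries in the nuclear groups.

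Complex I was the largest group. Of its 36 nuclear genes 31 were higher in HT with all libraries (median 0.036) and 11 without HT 4 (median -0.049), and the 7 core genes changed from 7 to 2. With the trend also removed 21 of the 36 were higher (median 0.0062). The smallest p was that of *Ndufa6*, an accessory subunit of the LYR protein family, with 966, 1039, 998, 1250 and 1161 normalised counts in HT 1 to 5 and 934, 1001, 949, 873 and 1091 in WT 1 to 5. Both groups overlapped, and the log2 fold change was 0.16 ± 0.082 (SE, n = 5 per group, exact permutation p = 0.119) and 0.10 ± 0.071 without HT 4. *Ndufb5* followed, with means of 1891 ± 268 (SD, n = 5) for HT and 1691 ± 167 (SD, n = 5) for WT, and its log2 fold change of 0.16 became 0.076. *Ndufb8*, the highest nuclear gene of the complex, was at 2939 in HT 4 and between 1982 and 2130 in the other HT libraries, below or within the WT range of 2037 to 2444. *Ndufs4*, whose loss causes a form of Leigh syndrome, had an unadjusted p under 0.05 without HT 4 (log2 fold change -0.18 ± 0.079, adjusted p = 0.574 by limma).

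Among the assembly factors, *Ndufaf5* (ENSMUSG00000027384, chromosome 2, 140170649 to 140203689), a factor that modifies a core subunit during assembly, had 636, 688, 752, 832 and 775 normalised counts in HT 1 to 5 and 681, 611, 663, 640 and 662 in WT 1 to 5. Of the HT libraries 4 were above every WT library and HT 1 was among them. Means were 736 ± 76.0 in HT and 651 ± 26.7 in WT (SD, n = 5), a log2 fold change of 0.17 ± 0.074 (SE, unadjusted p = 0.0379 and adjusted p = 1.00 by limma, exact permutation p = 0.0635). It kept its direction without HT 4 (0.13 ± 0.067, exact permutation p = 0.111). *Ndufaf7*, a methyltransferase for another core subunit, was at 806 ± 57.4 and 753 ± 63.8. *Ndufaf8*, the lowest of the group and a partner of *Ndufaf5*, had 68.2, 71.9, 77.9, 133 and 93.9 normalised counts in HT 1 to 5 and 84.8 to 118 in WT. The fitted difference was -0.15 (log2) over all 10 libraries and -0.31 ± 0.15 without HT 4 (exact permutation p = 0.0476, adjusted p = 0.598 by limma). Over the 8 factors 5 were higher with all libraries and 4 without HT 4, with or without the trend.

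In complex II, *Sdhc*, a membrane anchor subunit, was lower in HT both ways. Its normalised counts were 1576, 1778, 1789, 2239 and 1651 in HT 1 to 5 and 2098, 1921, 1722, 1965 and 1951 in WT 1 to 5. HT 4 was the highest of all, and the other HT libraries lay below every WT library but WT 3. The fitted log2 difference was -0.10 ± 0.087 over all 10 libraries and -0.18 ± 0.059 without HT 4 (SE, unadjusted p = 0.00725, adjusted p = 0.446 by limma, exact permutation p = 0.0317). *Sdhb* was even across the other HT libraries (2153, 2159, 2160 and 2232 in HT 1, 2, 3 and 5) and stood at 2843 in HT 4, against 2072 to 2237 in WT, so that a log2 fold change of 0.090 became 0.013. The medians of the 4 genes were 0.0018 and -0.043, and -0.030 with the trend also removed, where *Sdhc* stayed at -0.19.

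In complex III the count depended on HT 4 and on the trend. Of the 9 nuclear genes of complex III 8 were higher with all libraries (median 0.044) and 3 without HT 4 (median -0.011), but 8 again with the trend also removed (median 0.031). *Uqcrb*, the ubiquinone-binding protein, was at 1790 in HT 4, 1250 to 1468 in the other HT libraries and 1283 to 1566 in WT. *Uqcr10*, a small subunit next to cytochrome c1, went from a log2 fold change of 0.11 to 0.015, and *Uqcrh* from 0.085 to -0.013. *Cycs* had 1929, 2145, 2217, 2270 and 2265 normalised counts in HT 1 to 5 and 1910, 2185, 1842, 2033 and 2128 in WT 1 to 5. HT 3, HT 4 and HT 5 were above every WT library and the other HT libraries were within the WT range. It stood 0.10 ± 0.063 higher (log2) over all 10 libraries (exact permutation p = 0.151) and 0.083 ± 0.060 without HT 4, and 0.069 and 0.045 with the counts of its copies added. *Cyc1* changed from 0.044 to -0.0091.

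In complex IV 12 genes changed from higher to lower. Of its 17 nuclear genes 14 were higher with all libraries (median 0.040) and 2 without HT 4 (median -0.054), but 11 with the trend also removed (median 0.017). *Cox4i1* was at 4747, 5107, 5103, 7077 and 5337 normalised counts in HT 1 to 5 and 5167, 5401, 5035, 5118 and 5670 in WT 1 to 5. HT 4 was far above the rest and the other HT libraries reached from below WT into its range. *Cox7c*, with the smallest p of the complex, went from a log2 fold change of 0.098 ± 0.089 to 0.027 ± 0.069, *Cox5a* from 0.081 to -0.0033 and *Ndufa4* from 0.080 to -0.0091. The rare isoforms gave wide errors, with *Cox6a2* at -0.27 ± 0.32 and *Cox7a1* at -0.069 ± 0.37 with all libraries.

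In ATP synthase 14 of 17 nuclear genes were higher with all libraries (median 0.037) and 4 without HT 4 (median -0.027), and 9 with the trend also removed (median 0.0064). *Atp5b* had 21364, 22031, 21808, 26284 and 22502 normalised counts in HT 1 to 5 and 22562, 22667, 21775, 21864 and 21917 in WT 1 to 5. The groups overlapped closely once HT 4 was set aside, and the log2 fold change went from 0.037 ± 0.055 to -0.015 ± 0.029. *Atp5l* and *Atp5c1*, of the membrane sector and the central stalk, had the smallest p of the group, with log2 fold changes of 0.074 and 0.066 that became 0.0080 and 0.0059. *Atp5e*, the smallest subunit of the central stalk, had 1059, 1165, 1205, 1796 and 1074 in HT 1 to 5 and 1197 to 1388 in WT. It was at -0.17 ± 0.059 without HT 4 (unadjusted p = 0.0104, adjusted p = 0.463 by limma), and at -0.090 with the trend also removed, where no gene of the group had an unadjusted p under 0.05.

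In the mitochondrial genes HT 4 mostly stood at the other end. HT 4 was the lowest of the 10 libraries in 8 of the 13 genes and the highest in 2, *mt-Atp6* and *mt-Co2*, both with a chromosome 1 copy. Such a copy did not set these genes apart, since *mt-Nd4l* and *mt-Co1* have one too and were lowest in HT 4. With all libraries 11 of 13 were higher in HT (median 0.078) and none had an unadjusted p under 0.05. Without HT 4 the count was 9 of 13 with a median of 0.12, and 8 genes had an unadjusted p under 0.05, all higher in HT, against 8.4% of all genes tested. That share covers both directions, with 798 genes higher and 631 lower of 17020. The mitochondrial genes moved together by library, with a median deviation of 0.23 in HT 3 and 0.10 in HT 5, so the 8 are not independent results. None of the 13 passed the adjusted threshold, which 2 genes of the table did (0.0118%), *Arid1b* and *Adamtsl3*. Removing the length and GC trend as well left 5 of the 13 at an unadjusted p under 0.05, against 8.04% of all genes, and 64 of the 105 genes higher, against 54.3%.

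The largest difference was that of *mt-Nd4l*, with 13442, 14505, 17041, 6251 and 12655 normalised counts in HT 1 to 5 and 10336, 10755, 11256, 9625 and 10413 in WT 1 to 5. All HT libraries but HT 4 were above every WT library, and HT 4 was below them all. The fitted log2 difference was 0.21 ± 0.22 over all 10 libraries (exact permutation p = 0.468) and 0.45 ± 0.076 without HT 4 (SE, unadjusted p = 9.18e-05, adjusted p = 0.222 by limma, exact permutation p = 0.00794, the smallest that 4 against 5 libraries allow). *mt-Nd5*, the other gene whose groups did not overlap without HT 4 (2.96% of all genes did not), had 99589, 96845, 118356, 59656 and 96198 in HT 1 to 5 and 83445, 78070, 91170, 89058 and 94490 in WT 1 to 5. Its log2 fold change rose from 0.078 ± 0.14 to 0.23 ± 0.070 when HT 4 was left out (unadjusted p = 0.00712, adjusted p = 0.446 by limma, exact permutation p = 0.0159). *mt-Nd4*, which shares its transcript with *mt-Nd4l*, was at 116073 in HT 4, 140242 to 167732 in the other HT libraries and 131599 to 141326 in WT, and went from 0.070 to 0.15. *mt-Atp8*, at 8022 in HT 4, 11656 to 15292 in the other HT libraries and 9590 to 12920 in WT, went from 0.12 to 0.27.

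*mt-Co1*, the catalytic subunit of complex IV and the highest of all members, had 381826, 381696, 448916, 359354 and 420435 normalised counts in HT 1 to 5 and 363703, 364242, 366475, 370342 and 405753 in WT 1 to 5. HT 3 and HT 5 were above every WT library, HT 1 and HT 2 stood between WT 5 and the other WT libraries, and HT 4 was below all. Its log2 difference was 0.088 ± 0.059 over all 10 libraries and 0.12 ± 0.050 without HT 4. *mt-Cytb*, the cytochrome b of complex III, *mt-Nd1* and *mt-Nd2* were similar, at 0.071, 0.084 and 0.068 with all libraries and 0.11, 0.11 and 0.14 without HT 4. *mt-Nd6*, the one protein gene on the light strand, which lacks a stable poly-A tail, was low at 993 normalised counts. The labels name a stranded kit, but the strand setting of the quantification is not given in the sources used here, so reads from the opposite strand at *mt-Nd5*, which overlaps *mt-Nd6* by position, cannot be told apart.

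**Figure D3:**
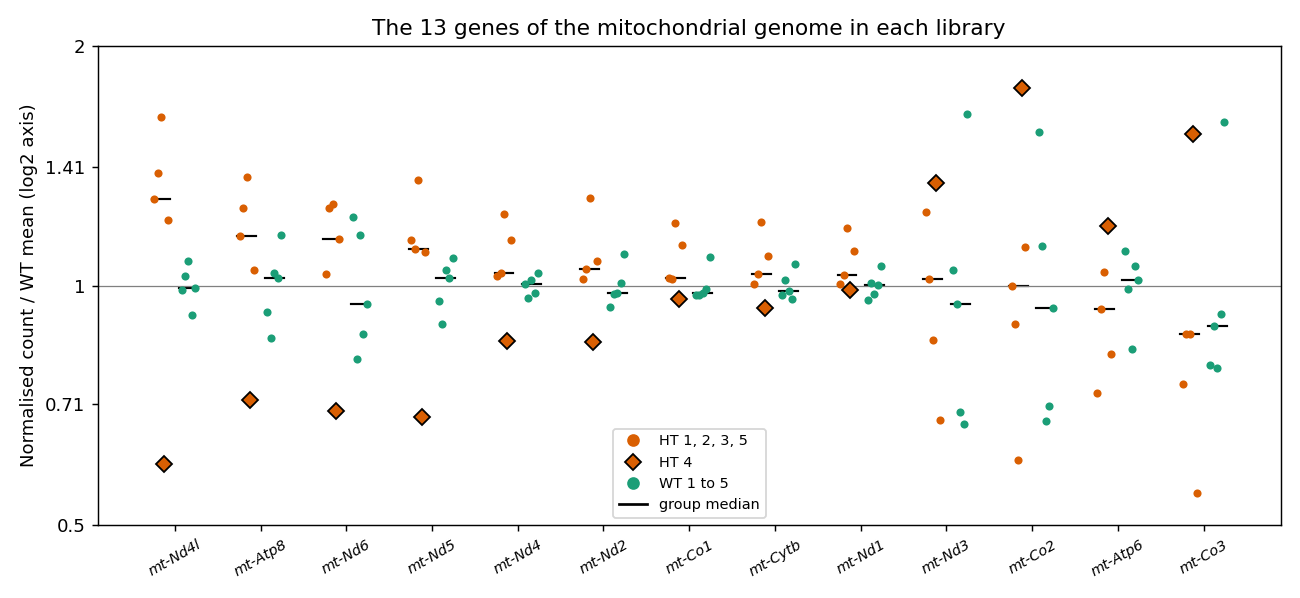
Normalised count of the 13 mitochondrial genes in each library, divided by the WT mean (log2 axis), in the order of the log2 fold change without HT 4, with HT in orange (HT 4 as a diamond), WT in green and bars at the group medians. HT 4 is lowest for *mt-Nd4l* through *mt-Cytb* and among the highest for the genes at the right, from *mt-Nd3* to *mt-Co3*, which have a copy on chromosome 1. *mt-Nd4l* and *mt-Co1* have such a copy too, and HT 4 is lowest for both.

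Libraries with high mitochondrial levels came from both groups. The 13 genes made up 4.46% of all normalised counts in HT 3, 4.11% in WT 5 and 4.10% in HT 5, against 3.71% to 3.89% in the other 7. The median deviation was 0.23 in HT 3, 0.10 in HT 5 and 0.075 in WT 5. These were also the 3 libraries with the highest erythroid marker score (0.89, 0.81 and 0.86, mean deviation over 6 genes, against at most 0.52 in the others), and the part of blood in the mitochondrial result was not tested. Without HT 3 the median log2 fold change of the 13 genes fell from 0.078 to 0.028.

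Counts assigned to the chromosome 1 copies were large. The copies of *mt-Co2*, *mt-Co3*, *mt-Atp6* and *mt-Nd3* held more counts than the genes themselves. *mt-Co2* received between 12.4% and 39.0% of the sum of gene and copies across libraries, *mt-Co3* between 9.47% and 26.9%, *mt-Atp6* between 6.28% and 9.87% and *mt-Nd3* between 4.69% and 9.58%. The share of *mt-Co2* was 12.4% in HT 3 and 37.4% in HT 4, and 17.0% in WT 3 and 39.0% in WT 1, so it spread as far within each group as between them. The sum was more even. For *mt-Co2* the gene alone ran from 22830 to 66857 normalised counts and the sum from 149665 to 184471.

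With the copies added, all 13 mitochondrial genes were higher in HT, both with all libraries (median log2 fold change 0.094) and without HT 4 (median 0.11). Of them 8 had an unadjusted p under 0.05 without HT 4, beside 796 higher and 631 lower of all 17007 genes tested. *mt-Atp6* turned from -0.10 to 0.11 and *mt-Co3* from -0.15 to 0.088 with all libraries. *mt-Nd4l* fell from 0.21 to 0.095, and without HT 4 from 0.45 to 0.27 (unadjusted p = 0.00600, adjusted p = 0.447 by limma). Its copy was listed at 0 in HT 1, HT 2 and WT 2 and at 587 to 3223 in the other libraries. The sum for *mt-Nd4l* was 13442, 14505, 17628, 8160 and 15111 in HT 1 to 5 and 12710, 10755, 13372, 12849 and 12959 in WT 1 to 5, so the groups without HT 4 still did not overlap. For *mt-Nd3*, which had received 965 normalised counts on average, the sum was 13271. Per kilobase and with copies, the order of the mitochondrial genes became *mt-Co1* (266370), *mt-Co2* (237940), *mt-Atp6* (235573) and *mt-Co3* (205163), followed by *mt-Nd1* (148314) and *mt-Cytb* (147351). The share of all normalised counts rose to 5.17% to 6.22%.

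**Figure D4:**
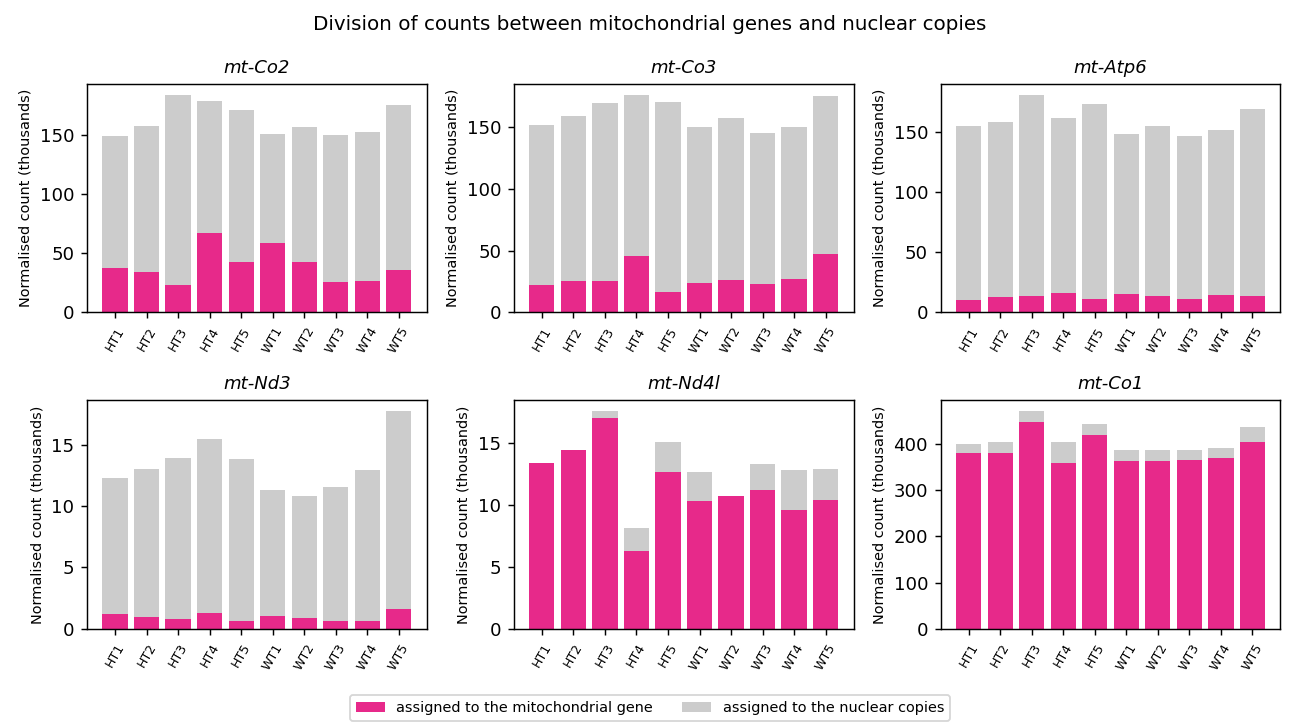
Normalised counts (in units of 1000) of 6 mitochondrial genes in each library, with the part assigned to the gene in magenta and the part assigned to its nuclear copies in grey. For *mt-Co2*, *mt-Co3*, *mt-Atp6* and *mt-Nd3* the grey part is the larger in every library, while for *mt-Nd4l* the grey part is absent in HT 1, HT 2 and WT 2.

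Leaving out HT 4 moved the nuclear and the mitochondrial genes apart in the deposited values. Without it 8 mitochondrial genes and no nuclear gene were higher at an unadjusted p under 0.05, and 3 nuclear genes (*Sdhc*, *Atp5e* and *Ndufs4*) were lower. Of all 17020 genes tested, 798 were higher and 631 lower at that level. The 3 lower of 92 nuclear genes were thus near the share over all genes. With the trend also removed 5 genes of each genome were higher at that level and 2 nuclear genes (*Sdhc* and *Ndufs4*) lower, so most of this separation was lost. Of all 17020 genes 825 were then higher and 544 lower. The difference between both genomes was not tested. The ratio of mitochondrial counts with copies to nuclear counts of the chain was 5.86 in HT 4, 7.79 to 8.84 in the other HT libraries and 7.03 to 7.83 in WT.

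**Figure D5:**
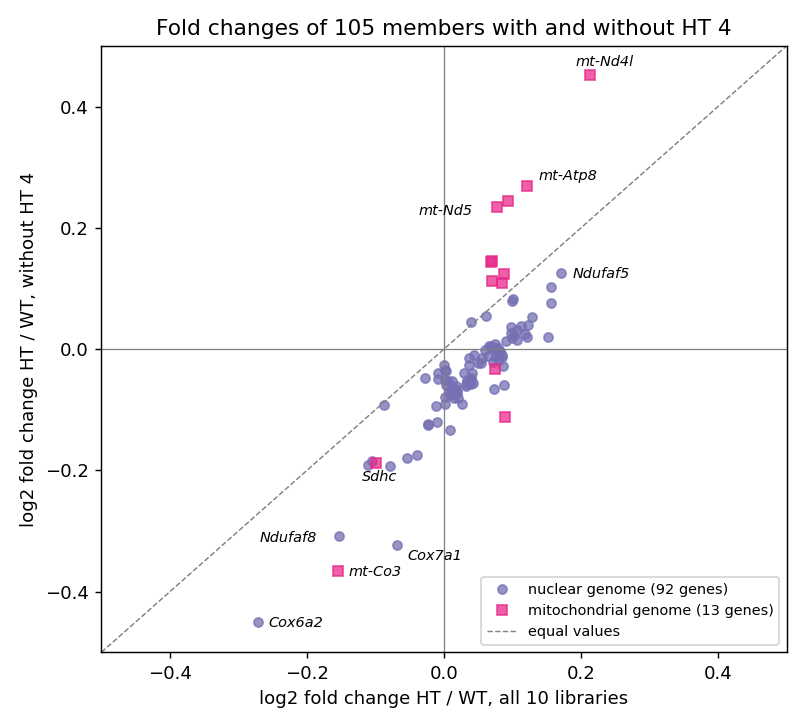
Log2 fold change of HT over WT for each of the 105 genes with all 10 libraries (horizontal) and without HT 4 (vertical), with nuclear genes as circles, mitochondrial genes as squares and a dashed line at equal values. All nuclear genes but *Uqcrc2* lie below the line, with 50 higher in HT on the horizontal and lower on the vertical axis, and 9 mitochondrial genes lie above it, led by *mt-Nd4l* (0.21 and 0.45).

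Other genes that serve the chain were counted in lists. Of 45 further assembly factors of complexes I to V, which insert haem, copper and iron-sulphur centres or join subunits, 29 were higher in HT with all libraries and 26 without HT 4 (medians 0.041 and 0.017), and none had an unadjusted p under 0.05 either way. Of 34 genes for transcription, processing and translation of the mitochondrial genome 14 were higher both ways (medians -0.022 and -0.042), with 2 higher and 2 lower at an unadjusted p under 0.05 with all libraries, 4 of 34 beside the 3.41% of all genes. Those were *Mterf3* (log2 fold change 0.20), a repressor of mitochondrial transcription, and *Mrrf* (0.24), a ribosome recycling factor, above WT, and *Tfb2m* (-0.16), a transcription initiation factor, and *Fastkd2* (-0.30), an RNA-binding protein of the mitochondrial ribosome, below it. Without HT 4 *Tfb2m* was no longer under that level (-0.12, unadjusted p = 0.101 by limma) and *Hsd17b10*, a subunit of mitochondrial RNase P, was (-0.16, unadjusted p = 0.0137 by limma). *Tfam*, which packages and transcribes mitochondrial DNA, was at -0.13 and -0.17. None of these passed the adjusted threshold. Of 18 nuclear regulators of mitochondrial biogenesis 7 were higher (median -0.025) and 9 without HT 4 (median -0.0065), with *Ppargc1a*, the coactivator PGC-1alpha, at -0.0055 and 0.069 and *Nrf1* at 0.049 and 0.011. Of 26 genes of the citric acid cycle and pyruvate entry 18 were higher and 14 without HT 4 (medians 0.022 and 0.0035). Of 26 carriers, pores and import genes 20 were higher and 13 without HT 4 (medians 0.028 and -0.0032).

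Markers of the labelled tissue were present. All 8 markers each of neurons, of astrocytes and radial glia, of the oligodendrocyte lineage and of microglia were detected and tested, and so were all 9 of forebrain and 9 of 10 of cerebellum. Between groups, the median log2 fold change with all libraries and without HT 4 was 0.0037 and 0.050 for neurons, 0.033 and -0.051 for astrocytes and radial glia, 0.065 and -0.015 for the oligodendrocyte lineage, -0.19 and -0.29 for microglia, -0.064 and -0.0076 for forebrain and -0.17 and -0.26 for cerebellum. No marker of these lists passed the adjusted threshold in either comparison. Of 11 erythroid markers 6 were tested, all higher in HT (median 0.48), and their summed level ran from 5963 to 13737 normalised counts in HT and from 4531 to 13896 in WT. Of 16 skeletal and heart muscle markers 10 were tested and 9 were lower in HT (median -0.36), with a summed level of 381 to 900 in HT and 450 to 781 in WT.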

How the data were processed

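Whole-brain poly-A RNA from 10 mice was sequenced, 1 library per mouse. Per the labels and the study's methods, the authors quantified paired-end reads with Salmon 1.1.0 against GRCm38 with GC bias correction, imported gene values with tximport and divided them by DESeq2 1.30.1 size factors. The deposited signal is this normalised read count. Since the values are not whole, no count model was used. The labels and the methods give different R versions, and the annotation release is not given in the sources used here. Totals of 27243506 to 29032442 per library are sums of these normalised values, so they do not show the sequencing depth of a library. Precision was limited most for the rare isoforms.

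Symbols, positions and lengths came from GENCODE M21 (18431 of 18444 identifiers matched). The length used was that of the principal transcript (APPRIS, then support level, then the shortest). HT was compared with WT by limma 3.58.1 in R 4.3.3 (trend, robust, two-sided) on log2(value + 1) for 17020 genes with a mean of at least 10, without covariates. This scale understates changes of low genes. The method was tested on simulated data that held no library shifted as HT 4 was and no trend with transcript length. That test does not cover these features of the real data. Single genes also got a two-sided exact permutation test over all assignments of the libraries. Genes share sequence where they have 31-base words in common, from 5% of the words. The count of columns not used was 0.

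Genes were named by rule: *Arid1b*, the mitochondrial genes, in each complex the 2 nuclear genes with the smallest p and the highest and lowest per kilobase, the isoform families, and genes whose groups did not overlap. *Atp5e*, *Ndufs4*, *Uqcrc2*, *Adamtsl3*, the leaders by summed exon length and the genes named from the 13 lists of pathway genes and markers were chosen after their values were seen. Members and lists were chosen with earlier results of these data known. Replicate numbers came from the labels, which tie them to no litter, and samples were not treated as paired. Libraries were not duplicates, since Pearson's r over tested genes ran from 0.973 to 0.988. Alternatives were other pseudocounts, filters, scalings and fits, and each library left out.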

Additional observations from a re-analysis of the deposited data

Results flagged for a closer look

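Of 122 groups of 5 libraries checked (61 results in HT and in WT), 21 held a library whose gap to its nearest neighbour exceeded the 95% limit of Dixon's test, as a share of the range. Chance alone gives about 6.1. HT 4 was the far library in 14 of them. It was the highest HT library for *Atp5b* (gap share 0.769), *Atp5g3* (0.805), *Cox4i1* (0.747), *Cox6b1* (0.746), *Cox7a1* (0.822), *Ndufa4* (0.770), *Ndufb8* (0.846) and *Sdhb* (0.886), and the lowest for *Arid1b* (0.735). It was also the highest for the median of all nuclear genes (0.720), of nuclear complex I (0.724), of the assembly factors (0.755) and of complex II (0.860), and for the share of counts from nuclear genes (0.815).

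The other 7 were in WT. WT 5 was the highest for *Uqcrb* (0.879), *mt-Co1* (0.842), *mt-Co3* (0.839), the median of the mitochondrial genes (0.835) and their share of counts (0.765). WT 1 was the highest for *Atp5g3* (0.763) and WT 3 for *Cox6a2* (0.714).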

How the results depend on the processing

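No gene of the chain passed the adjusted threshold under any alternative for the 50 named genes (smallest adjusted p 0.155), and 1003 of their 1066 values kept their direction. The count of genes passing in the whole table was 0 and became 2 with sample weights, 1 with the length and GC trend removed, 2 with that and HT 4 left out, 2 with copies summed and HT 4 left out, and 0 to 2 with each library left out. Members at an unadjusted p under 0.05 numbered 1, then 0 scaled to the nuclear-encoded total, 0 with the replicate block, 10 with sample weights, 9 with the trend removed, 12 with that and without HT 4, 11 with copies summed and without HT 4, and 0 to 11 with each library left out. Members higher in HT numbered 87, then 50 with sample weights, 37 with copies summed and without HT 4, and 35 (HT 4) to 92 (HT 1) with each library left out. With each library left out, the median log2 fold change ran from -0.028 to 0.087 for all members, from -0.038 to 0.089 for nuclear and from 0.028 to 0.12 for mitochondrial genes, and with copies summed and HT 4 left out it was -0.027 for all and -0.039 for nuclear genes. The cause of these moves was not tested. Of the named genes, 19 changed sign without HT 4 and 10 without some other library. Deviations of same-numbered libraries from their group means correlated at 0.091, 0.084, 0.082, -0.10 and 0.093 for numbers 1 to 5. HT libraries correlated best with their own number in 4 of 5 cases, all but HT 4. What same-numbered libraries have in common was not tested. The replicate block left 0 adjusted calls, as before.

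Signs turned as follows, as log2 fold changes. Summing copies gave *mt-Atp6* 0.11 and *mt-Co3* 0.088, and without HT 4 *Atp5g2* -0.055, *Atp5l* -0.027, *mt-Atp6* 0.11 and *mt-Co3* 0.064. With the trend removed and without HT 4 *Cox7a2l* was -0.035, *Cox7b* -0.040, *Ndufb8* -0.015, *mt-Co2* -0.089 and *mt-Nd3* -0.041. Quantile normalization gave *Cox7a1* 0.030, *mt-Nd1* -0.0082 and *mt-Nd4* -0.0029. Sample weights gave *Atp5b* -0.0051, *Atp5g3* -0.0071, *Cox4i1* -0.025, *Cox6a1* -0.017, *Cox6b1* -0.026, *Cox6b2* -0.024, *Cox7a2* -0.016, *Cox7a2l* -0.043, *Cox7b* -0.037, *Ndufb8* -0.050 and *mt-Co2* -0.12. With each library left out, *Atp5b* ran from -0.015 to 0.060, *Atp5g1* from -0.013 to 0.13, *Atp5g2* from -0.0013 to 0.18, *Atp5g3* from -0.022 to 0.091, *Cox4i1* from -0.057 to 0.087, *Cox5a* from -0.0033 to 0.12, *Cox6a1* from -0.054 to 0.11, *Cox6b1* from -0.050 to 0.080, *Cox6b2* from -0.058 to 0.22, *Cox7a1* from -0.32 to 0.058, *Cox7a2* from -0.040 to 0.081, *Cox7a2l* from -0.065 to 0.053, *Cox7b* from -0.069 to 0.072, *Cox8a* from -0.00076 to 0.10, *Cyc1* from -0.0091 to 0.077, *Ndufa4* from -0.0091 to 0.12, *Ndufb8* from -0.081 to 0.061, *Uqcrfs1* from -0.011 to 0.10, *Uqcrh* from -0.013 to 0.14, *mt-Co2* from -0.11 to 0.28, *mt-Co3* from -0.37 to 0.030, *mt-Nd2* from -0.0066 to 0.14, *mt-Nd3* from -0.049 to 0.27 and *mt-Nd5* from -0.013 to 0.23.

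Levels per kilobase depended on the length taken: with the summed exon length the nuclear medians became 924 for complex I, 1108 for II, 1629 for III, 1930 for IV and 1344 for ATP synthase, which changed their order. *Arid1b* was lower in HT under every alternative.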
